A study of Mus musculus with 15 samples.

Results

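The expression of genes that handle extracellular ATP, NAD and adenosine was followed in donor T cells. The set was chosen by symbol and holds 8 of the 55421 genes in the count files: the ATP-gated channels P2rx7 and P2rx4, the ectoenzymes Entpd1, Nt5e, Cd38 and Art2b, the adenosine receptor Adora2a and adenosine deaminase, Ada. RNA was sequenced from CD4+ T cells of spleen and mesenteric lymph node (mLN) tissue, taken 6 weeks after naive CD4+ T cells were placed into Rag2-/- mice, which make no T or B cells of their own and develop colitis from the transferred cells. WT donors were Prkaa1 fl/fl mice and KO donors were Prkaa1 fl/fl mice that also carried CD4-Cre, so both donor groups shared the floxed alleles and the C57BL/6 background. Prkaa1 encodes the AMPKα1 subunit of the energy sensor AMPK, and the Cre, driven by CD4 regulatory sequence, deletes it in the T cell lineage of the donor. The study used its mice at 6 to 8 weeks of age, and it gives no separate age for the recipients when the cells were taken. There were 4 samples each of WT spleen, KO spleen and KO mLN, and 3 of WT mLN, numbered 1, 2 and 4.

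ATP released by activated, stressed or dying cells opens P2X channels and activates P2Y receptors on T cells. Entpd1 (CD39) removes phosphates from ATP and ADP to leave AMP, Nt5e (CD73) turns AMP into adenosine, adenosine acts through the inhibitory receptor Adora2a, and Ada removes it by converting it to inosine. Extracellular NAD is consumed by Cd38 and by the ADP-ribosyltransferase Art2b, which in the mouse can transfer ADP-ribose from NAD to the P2X7 channel on T cells and so open it. CD39 and CD73 are known for high levels on regulatory T cells, and P2X7 for its part in T cell death.

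Reads on genes numbered between 9363940 and 11283439 per sample. Prkaa1 itself stood at 50.3 ± 3.24 CPM (counts scaled to library size, mean ± SD) in WT spleen (n = 4) and 20.02 ± 1.16 in KO spleen (n = 4), and at 54.2 ± 5.55 in WT mLN (n = 3) and 28.0 ± 5.34 in KO mLN (n = 4), without overlap between the genotypes in either organ. All CPM values here were scaled with TMM, a correction for library composition, over all 15 samples. The 6 T cell markers summed to 5805 to 7872 CPM in every sample. The 3 erythroid markers, chiefly haemoglobin, ranged from 12.8 to 1417 CPM and were highest in WT spleen 3 and 4 and WT mLN 4. Summed myeloid markers were higher in spleen (187 to 519 CPM in WT, 164 to 520 in KO) than in mLN KO samples (74.9 to 95.6), while WT mLN samples lay at 83.1 to 229. In such bulk samples, fewer cells of a type and less RNA per cell cannot be told apart.

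All 8 genes passed the filter on low counts in each comparison. Divided by exon length, so that genes can be ranked, CPM per kb in WT spleen was 47.3 ± 6.94 for Adora2a, 43.9 ± 19.2 for Cd38, 43.6 ± 15.1 for P2rx7 and 28.0 ± 9.96 for Art2b, and the sample ranges of neighbours among these 4 overlapped. A clear step followed, with Entpd1 at 12.2 ± 1.15 and Nt5e at 10.1 ± 3.90 CPM per kb, again overlapping each other, and P2rx4 at 4.44 ± 0.740 and Ada at 2.81 ± 0.807 closed the order. KO spleen had the same order with the same steps. In mLN the leading 4 genes overlapped in both genotypes, in WT between 31.5 ± 1.53 for Adora2a and 37.4 ± 7.73 CPM per kb for P2rx7 and in KO between 34.7 ± 6.05 for Adora2a and 41.4 ± 7.89 for Cd38. Nt5e came next in mLN and was separate from its rank neighbours Adora2a and Entpd1, at 24.2 ± 3.46 CPM per kb in WT and 18.7 ± 4.94 in KO, although in WT its range of 20.3 to 26.97 overlapped those of Art2b and Cd38. P2rx4 and Ada again came last, overlapping in WT mLN and separate in KO mLN (3.06 ± 0.430 and 2.13 ± 0.4997 CPM per kb).

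**Figure D1:**
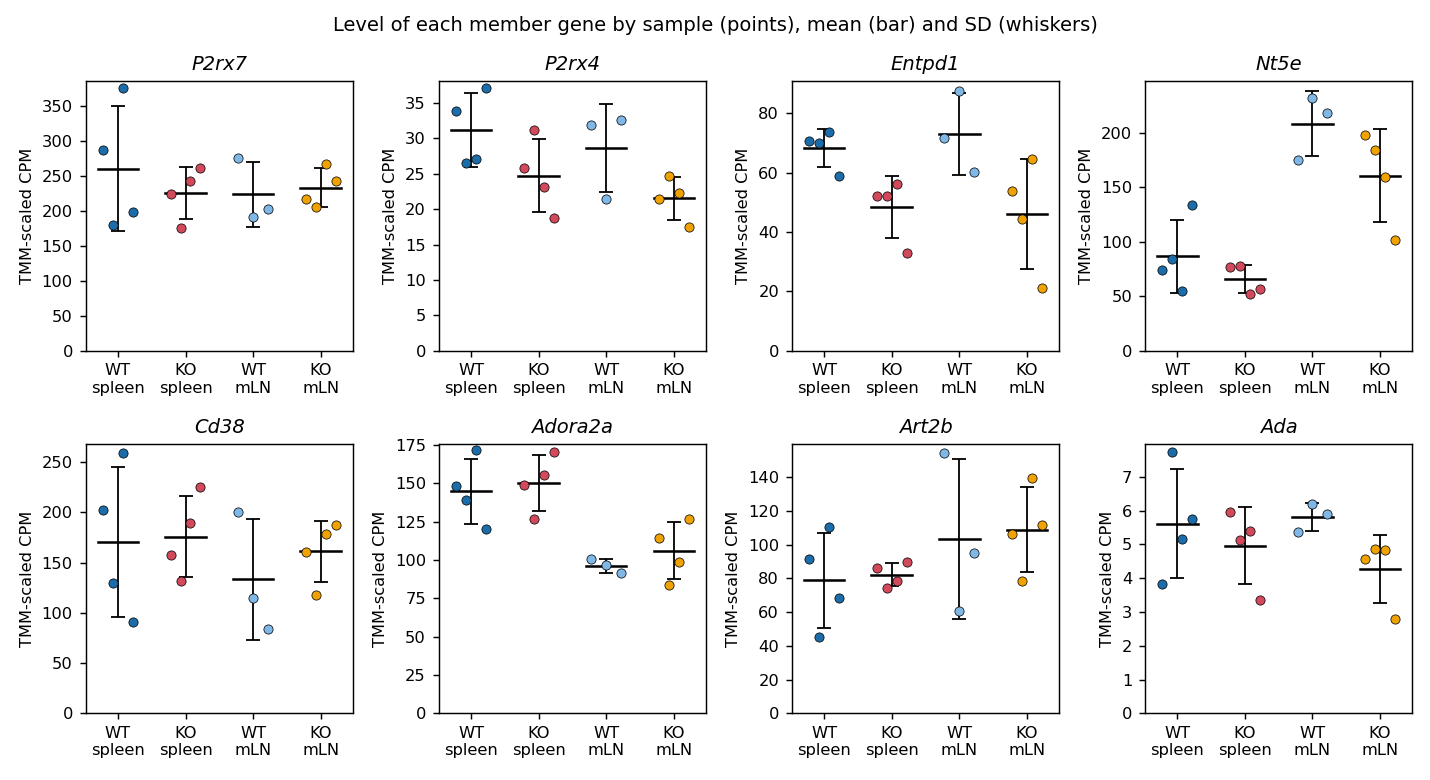
Each panel plots 1 gene in TMM-scaled CPM, with a point per sample, a bar at the group mean and whiskers of 1 SD for WT spleen, KO spleen, WT mLN and KO mLN (n = 4, 4, 3 and 4). Nt5e lies higher and Adora2a lower in mLN in both genotypes, without overlap between the organs of a genotype, which no other panel shows.

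The first question was whether loss of AMPKα1 changed these genes in either organ. It was tested with edgeR's quasi-likelihood test and Benjamini-Hochberg adjustment over all genes tested, and a gene was called at an adjusted p under 0.05. In spleen, 0 of the 8 genes were called, against 1.3% of the 14254 genes tested. In mLN, 0 of the 8 were called, against 0.641% of 14359 genes. An unadjusted p under 0.05 was reached by 1 of the 8 in each organ, in both cases Entpd1, where 20.5% of all genes in spleen and 15.7% in mLN did so. Over the 8, the median log2 fold change was -0.20 (spleen) and -0.16 (mLN), and over all genes tested it was -0.00 in each organ.

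**Figure D2:**
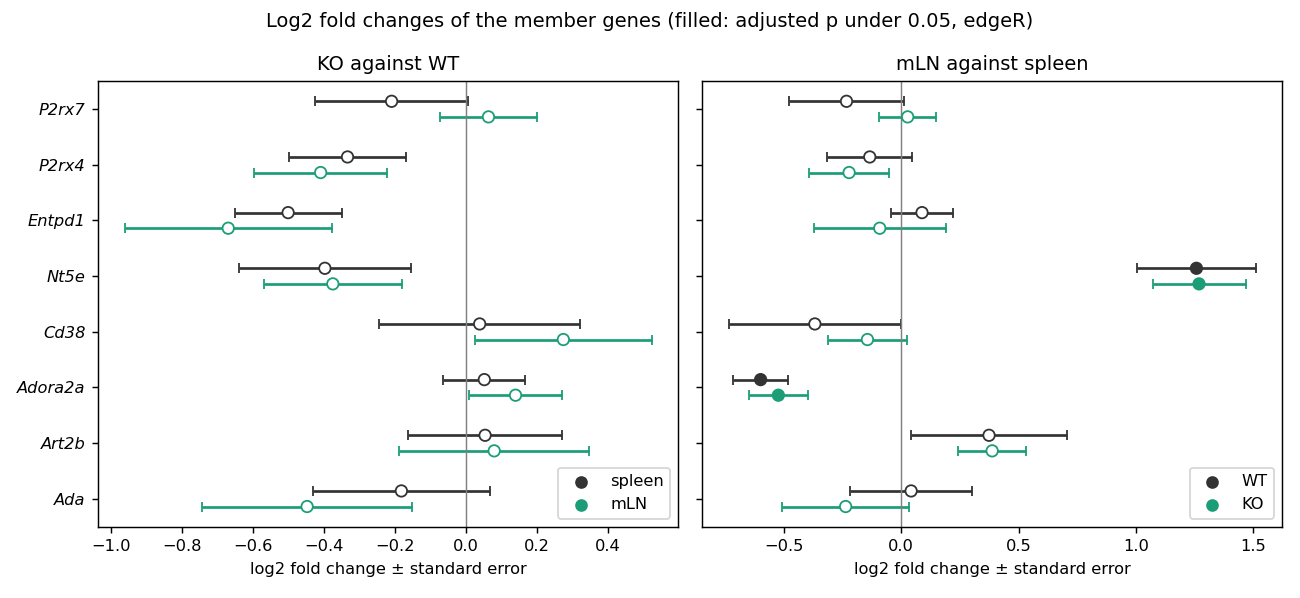
Log2 fold changes with standard errors from edgeR for the 8 genes, KO against WT in spleen and mLN on the left and mLN against spleen in WT and KO on the right, with filled points at an adjusted p under 0.05. No point is filled on the left, and on the right those of Nt5e (1.26 in WT, 1.27 in KO) and Adora2a (-0.60 in WT, -0.52 in KO) are filled.

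Entpd1 (ENSMUSG00000048120, GRCm38 chr19:40612366-40741602, plus strand), the ATP-hydrolysing enzyme, showed the largest KO against WT difference of the 8. Its level was 70.8, 69.9, 73.6 and 59.0 CPM in WT spleen 1 to 4 and 52.1, 52.2, 56.0 and 33.0 CPM in KO spleen 1 to 4. Every KO spleen sample lay below every WT spleen sample, an arrangement also seen for 6.08% of all genes tested. The log2 fold change was -0.50 ± 0.151 (SE), with an unadjusted p of 0.00725 and an adjusted p of 0.11 in edgeR, while DESeq2, which called 5.89% of all genes, gave -0.50 with an adjusted p of 0.036. In mLN the levels were 71.5, 87.6 and 60.2 CPM in WT 1, 2 and 4 and 54.0, 44.3, 64.6 and 21.1 CPM in KO 1 to 4. Here KO mLN 3 lay above WT mLN 4, so the groups overlapped. The log2 fold change was -0.67 ± 0.292, with an edgeR adjusted p of 0.30, and -0.42 without KO mLN 4, the lowest sample.

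Nt5e (ENSMUSG00000032420, chr9:88327197-88372092, plus strand), which makes adenosine from AMP, had log2 fold changes in KO of -0.40 ± 0.242 in spleen and -0.38 ± 0.195 in mLN, with edgeR adjusted p-values of 0.39 for both organs. Without WT spleen 4 the spleen value was -0.11, and without KO mLN 4 the mLN value was -0.20. WT spleen 4, the highest of the WT spleen samples, and KO mLN 4, the lowest mLN sample, were the extremes, and without WT spleen 4 the spleen samples of both genotypes lay between 52.0 and 84.6 CPM.

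Some regulatory T cell markers were also lower in KO. The 5 markers of that list, Foxp3, Ikzf2, Il2ra, Ctla4 and Tnfrsf18, summed to 447 to 655 CPM in WT spleen, 302 to 420 in KO spleen, 635 to 1257 in WT mLN and 381 to 662 in KO mLN. Foxp3 was at 19.3 to 41.7 CPM in WT spleen and 9.93 to 21.3 in KO spleen, and at 36.3 to 111 CPM in WT mLN and 7.35 to 42.9 in KO mLN. KO mLN 4, lowest for Entpd1 and Nt5e among the mLN samples, also had the least Foxp3, and KO spleen 4, lowest for Entpd1 in spleen, had the least there. Entpd1 and Foxp3 differed in order in other samples. WT spleen 4 had the most Foxp3 in spleen (41.7 CPM) but the least Entpd1 of WT spleen (59.0). It also had the most Nt5e there (133). WT mLN 4 had the least Entpd1 of WT mLN (60.2), with Foxp3 at 68.5 against 36.3 in WT mLN 1. Nt5e followed the order of Foxp3 in WT mLN. The lowest Nt5e in spleen was in KO spleen 3 (52.0), where Foxp3 was 13.5. Il2ra (log2 fold change -1.16) and Ctla4 (-0.78) were called lower in KO spleen (edgeR adjusted p = 0.0123 and 0.0391) and none of the 5 was called in mLN, and Ikzf2 hardly differed between genotypes, at 0.05 in spleen and -0.02 in mLN. Of the 5 markers, Foxp3 and Ctla4 had log2 fold changes of 1.34 and 1.57 in mLN against spleen in WT. Those of Entpd1 and Nt5e were 0.09 and 1.26. The part of regulatory T cells in the enzyme values was not tested.

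The 2 channel genes are neighbours on chromosome 5, 16111 bases apart, and shared no 75-base stretch of transcript, the length of a read. P2rx7 (ENSMUSG00000029468, chr5:122643911-122691432, plus strand), the receptor that needs high ATP or ADP-ribosylation to open, was at 288, 180, 376 and 199 CPM in WT spleen 1 to 4 and 224, 175, 243 and 261 CPM in KO spleen. Its mLN levels were 276, 192 and 202.4 CPM in WT 1, 2 and 4 and 217, 205, 268 and 243 CPM in KO. The spread among WT spleen samples, 2 of which were lower than 3 of the KO samples, exceeded the difference between genotypes, and the log2 fold changes were -0.21 ± 0.216 in spleen and 0.06 ± 0.136 in mLN (edgeR adjusted p = 0.63 and 0.86).

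P2rx4 (ENSMUSG00000029470, chr5:122707544-122729738, plus strand), an ATP-gated channel of higher sensitivity, was at 26.6 to 37.1 CPM in WT spleen and 18.8 to 31.2 in KO spleen. In mLN it was at 31.9, 21.4 and 32.6 CPM in WT and 21.5, 24.7, 22.3 and 17.5 CPM in KO. WT mLN 2 lay among the KO samples and the 2 other WT mLN samples above all of them. The log2 fold changes in KO were -0.33 ± 0.165 in spleen and -0.41 ± 0.187 in mLN, with edgeR adjusted p-values of 0.28 and 0.32.

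The NAD-consuming enzymes did not pass the test between genotypes. Cd38 (ENSMUSG00000029084, chr5:43868553-43912375, plus strand), which hydrolyses and cyclises NAD, was at 202.5, 130, 259 and 91.4 CPM in WT spleen and 157, 132, 190 and 225 CPM in KO spleen. WT mLN samples were at 201, 115 and 84.4 CPM and KO mLN samples at 161, 118, 178 and 187 CPM. The WT samples enclosed the KO samples in both organs, and log2 fold changes were 0.04 ± 0.283 and 0.27 ± 0.250 (edgeR adjusted p = 0.96 and 0.66). Art2b (ENSMUSG00000030651, chr7:101576970-101585600, minus strand) had log2 fold changes of 0.05 ± 0.216 in spleen and 0.08 ± 0.267 in mLN, with edgeR adjusted p-values of 0.92 in both.

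The same held for the adenosine receptor and for the enzyme that removes adenosine. Adora2a (ENSMUSG00000020178, chr10:75316877-75334784, plus strand) differed between genotypes by 0.05 ± 0.116 on the log2 scale in spleen and 0.14 ± 0.132 in mLN (edgeR adjusted p = 0.84 and 0.67). Ada (ENSMUSG00000017697, chr2:163726584-163750239, minus strand) had the fewest reads of the 8, 31 to 75 per sample. Its levels were 5.38, 6.20 and 5.89 CPM in WT mLN and 4.56, 4.88, 4.84 and 2.78 CPM in KO mLN. Every KO mLN sample was below every WT mLN sample, as was the case for 7.4% of all genes tested, and the log2 fold change of -0.45 ± 0.295 had an edgeR adjusted p of 0.52.

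The second question was how the genes differed between the organs. Between mLN and spleen, 2 of the 8 genes were called in WT cells, against 20.5% of 14515 genes tested, and 2 of the 8 in KO cells, against 25.3% of 14240 genes. These shares are near those of all genes. In both genotypes the called genes were Nt5e, higher in mLN, and Adora2a, lower in mLN.

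Nt5e was at 73.9, 84.6, 54.5 and 133 CPM in WT spleen 1 to 4 and at 175, 232 and 218 CPM in WT mLN 1, 2 and 4. KO spleen samples had 76.8, 77.3, 52.0 and 57.1 CPM and KO mLN samples 198, 184, 160 and 101 CPM. All mLN samples lay above all spleen samples of the same genotype, which was so in the same direction for 16.1% of all genes in WT and 14.2% in KO. The level was 2.39-fold higher in WT mLN (log2 fold change 1.26 ± 0.254, edgeR adjusted p = 0.0092) and 2.41-fold higher in KO mLN (1.27 ± 0.198, adjusted p = 0.00087).

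Adora2a, the receptor for the product of that enzyme, moved the other way. It was at 148, 139, 172 and 120 CPM in WT spleen and 101, 96.9 and 91.4 CPM in WT mLN, and at 149, 127, 155 and 171 CPM in KO spleen and 115, 84.1, 99.1 and 127 CPM in KO mLN. No mLN sample reached the lowest spleen sample of its genotype, although KO mLN 4 and KO spleen 2 both round to 127 CPM. The same direction without overlap was seen for 15.8% of all genes in WT and 14.6% in KO. The log2 fold changes in mLN were -0.60 ± 0.117 in WT and -0.52 ± 0.125 in KO, with edgeR adjusted p-values of 0.0077 and 0.010.

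Both calls held when any 1 library was left out, with log2 fold changes of 1.09 to 1.55 in WT and 1.16 to 1.44 in KO for Nt5e. The 6 markers of follicular helper T cells also had a higher sum in mLN, at 692 to 800 CPM in WT spleen, 689 to 756 in KO spleen, 1090 to 1297 in WT mLN and 1185 to 1302 in KO mLN. Most of this was Icos, a costimulatory receptor, at means of 368 CPM in WT spleen and 858 in WT mLN, while Cxcr5, Bcl6, Pdcd1, Il21 and Sh2d1a were not called in WT and, of these, Sh2d1a was called in KO (log2 fold change 0.41, edgeR adjusted p = 0.010). Markers of naive or central memory T cells were at 671 to 1263 CPM in WT spleen and 1231 to 1519 in WT mLN, and at 693 to 985 in KO spleen and 959 to 1262 in KO mLN. The CD8 T cell markers Cd8a and Cd8b1 summed to 2.58 to 4.96 CPM in WT spleen and 7.31 to 11.5 in WT mLN. In KO the sum was 1.57 to 4.43 CPM in spleen and 19.5 to 28.3 in mLN. The KO mLN sum was mostly Cd8a, at 16.5 to 23.1 CPM against 0.305 to 8.46 in WT mLN. Cd8b1 overlapped between the genotypes there, at 1.49 to 6.99 CPM in KO mLN and 3.05 to 7.01 in WT mLN. Dendritic cell markers summed to 17.1 to 25.9 CPM in WT spleen and 15.1 to 18.6 in WT mLN. In KO they summed to 17.5 to 22.2 CPM in spleen and 24.8 to 37.9 in mLN. Together with the myeloid and regulatory T cell values above, the part of these marker levels in the organ differences of Nt5e and Adora2a was not tested.

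Art2b, the enzyme that ADP-ribosylates P2X7, was the gene whose call between the organs depended on how samples were paired. It was at 91.4, 45.5, 111 and 68.6 CPM in WT spleen 1 to 4 and 154, 60.8 and 95.1 CPM in WT mLN 1, 2 and 4. The groups overlapped, since WT mLN 2 was lower than 3 of the spleen samples, and yet each mLN sample lay above the spleen sample with its own number, by 1.34-fold to 1.69-fold. The log2 fold change was 0.37 ± 0.334 (edgeR adjusted p = 0.47) without regard to the numbers and 0.54 (adjusted p = 0.0019) with the replicate number as a block, a fit that called 30% of all genes. Whether same-numbered samples came from the same mouse is not given in the sources used here, but their deviations from the group means went together in all 3 WT pairs.

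In KO cells Art2b was at 86.1, 74.6, 78.5 and 89.9 CPM in spleen and 106, 78.5, 140 and 112 CPM in mLN. KO mLN 2 lay among the spleen samples, and the other 3 mLN samples lay above all of them. The log2 fold change was 0.39 ± 0.146 with an edgeR adjusted p of 0.074, and 0.52 with an adjusted p of 0.0094 without KO mLN 2. DESeq2, which called 28.4% of all genes, gave 0.39 with an adjusted p of 0.0394. Its neighbour Art2a-ps, annotated as a pseudogene and 16104 bases away, shared 2.83% of the 75-base stretches of Art2b, so a small share of reads could not be assigned to 1 of the 2 genes.

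P2rx7 gave the opposite picture, with little difference between the organs beside large differences between samples. Same-numbered WT samples were at 288 and 276, 180 and 192, and 199 and 202.4 CPM in spleen and mLN. Their ratios were 0.961 to 1.07, whereas these spleen samples ran from 180 to 288 CPM. Over all WT spleen samples P2rx7 differed up to 2.09-fold, but the highest, WT spleen 3, had no mLN sample of its number. In KO cells the ratios were 0.93 to 1.17. Cd38 behaved similarly in WT cells, with ratios of mLN to spleen of 0.885 to 0.992. The log2 fold changes in mLN against spleen were -0.23 ± 0.244 in WT and 0.03 ± 0.121 in KO for P2rx7, and -0.37 ± 0.367 and -0.14 ± 0.168 for Cd38, and edgeR's adjusted p-values lay between 0.52 and 0.90.

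The 3 remaining genes were not called between the organs. P2rx4 had log2 fold changes of -0.13 ± 0.181 in WT and -0.22 ± 0.169 in KO, Entpd1 of 0.09 ± 0.134 and -0.09 ± 0.281, and Ada of 0.04 ± 0.259 and -0.24 ± 0.270. The edgeR adjusted p-values of these 6 tests were between 0.37 and 0.93.

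Whether the KO against WT difference itself differed between the organs was tested as the interaction of genotype and organ over all 15 samples. In edgeR 0 of the 8 genes were called, and 0% of all 15438 genes, of which 652 had an unadjusted p under 0.05 (4.22%), while DESeq2 called 4 genes (0.0259%). None of the 8 had an unadjusted p under 0.05. The interaction of Nt5e was 0.02 on the log2 scale and that of Adora2a 0.09.

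Some of the 8 genes rose and fell together from sample to sample. Over the 15 samples, with group means removed, Pearson's r of log2 CPM was 0.88 for P2rx7 with Cd38, 0.85 for P2rx7 with Art2b and 0.69 for Cd38 with Art2b. Among 15437 other genes, Cd38 was the third most like P2rx7 (r = 0.82 without removal of group means), after Ero1lb and Fdx1 (both 0.83). Nt5e and Adora2a ran in opposite directions, with r = -0.77 after removal of group means, and Nt5e was ranked 15436 of 15437 for likeness to Adora2a (r = -0.93, with the organs apart). Entpd1 went with Ada at r = 0.66 within groups. These values describe genes measured in the same libraries, whose marker levels differed within an organ as given above, and no test was made.

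**Figure D3:**
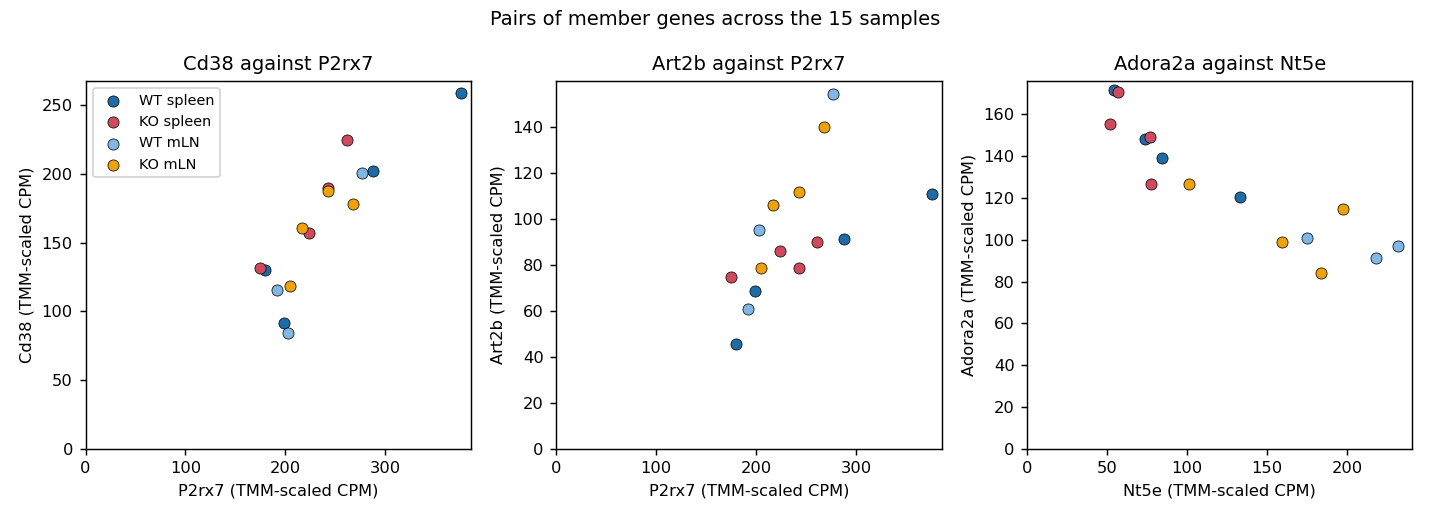
Each panel plots a pair of genes across the 15 samples in TMM-scaled CPM on both axes, a point per sample and a color per group. Cd38 and Art2b rise with P2rx7 in all groups (r within groups 0.88 and 0.85), and Adora2a falls as Nt5e rises (r within groups -0.77). Most mLN points of Art2b lie above spleen points at like P2rx7, while WT mLN 2 and KO mLN 2 lie among the spleen points.

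The genes most like each of the others over the 15 samples, by the same r without removal of group means, were Opn1sw (0.90) and B4galt1 (0.87) for P2rx4, Itih5 and Prss41 (both 0.90) for Entpd1, and Klhl6 and Nipal1 (both 0.96) for Nt5e. For Cd38 they were Slamf7 (0.92) and Irf2 (0.91), for Adora2a Gm9821 and Rel (both 0.94), for Art2b Trappc2 (0.93) and Uros (0.89), and for Ada Nek8 and Zdhhc4 (both 0.87).

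Since P2rx7 and Art2b varied together and the product of one acts on that of the other, the 250 bases before their RefSeq start sites are shown (GRCm38.p6, 5′ to 3′ on the strand of the gene). The P2rx7 window is chr5:122643677-122643926 on the plus strand. That of Art2b is chr7:101581162-101581411 on the minus strand and lies inside the longer GENCODE gene. Capitals mark the AP-1 motif TGANTCA.
P2rx7: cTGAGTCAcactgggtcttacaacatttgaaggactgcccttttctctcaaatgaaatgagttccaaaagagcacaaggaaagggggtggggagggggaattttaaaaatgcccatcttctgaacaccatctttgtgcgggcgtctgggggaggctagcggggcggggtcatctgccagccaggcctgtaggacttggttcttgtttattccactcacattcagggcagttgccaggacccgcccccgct
Art2b: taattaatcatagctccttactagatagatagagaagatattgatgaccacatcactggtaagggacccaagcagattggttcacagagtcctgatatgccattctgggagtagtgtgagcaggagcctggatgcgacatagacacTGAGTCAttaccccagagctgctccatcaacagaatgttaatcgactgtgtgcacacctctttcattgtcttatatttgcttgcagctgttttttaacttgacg
Each window held 1 AP-1 motif, which was present in 6.75% of 32851 such windows. Of the 4 other motifs searched on both strands, the E-box CANNTG was found 4 times for P2rx7 and 1 time for Art2b (in 66.2% of windows), the Runx motif TGTGGT 1 time for Art2b only (14%), and the TCF/LEF motif CTTTGA (13.8%) and the cAMP response element TGACGTCA (1.55%) in neither. A match is a description of letters and does not show binding.

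Around the 8 genes, 37 others of the same pathways were listed by role, of which 16 to 17 passed the filter on low counts in the 4 comparisons between groups. Between genotypes, 1 of 17 was called in spleen, where 1.3% of all genes were, and 0 of 17 in mLN, where 0.641% were. The called gene was Enpp1, which splits ATP into AMP and pyrophosphate and was the only other nucleotide-hydrolysing ectoenzyme to pass the filter. It was at 20.9, 20.7, 22.5 and 23.03 CPM in WT spleen and 14.4, 15.3, 16.0 and 11.4 CPM in KO spleen, so the groups did not overlap. The log2 fold change was -0.61 ± 0.123 (edgeR adjusted p = 0.0453), and the adjusted p was 0.0571 to 0.116 when any 1 of the 8 libraries was left out. In mLN the log2 fold change was -0.56 ± 0.244, with an edgeR adjusted p of 0.3. P2ry14, the receptor for UDP-glucose, named after its values were seen, was the other gene without overlap in spleen. It was at 2.68 to 7.09 CPM in WT and 1.45 to 2.27 in KO (log2 fold change -1.41 ± 0.305, edgeR adjusted p = 0.0533). Lower in KO spleen without overlap were 2 of 17 listed genes, against 6.08% of all genes tested. In mLN the gene without overlap was the ADP-ribosyltransferase family member Art3, also named after its values were seen, with 7, 4 and 0 reads in WT and 36, 10, 21 and 38 reads in KO. Higher in KO mLN without overlap was 1 of 17 listed genes, against 6.61% of all genes tested. Art3 was not called by edgeR in mLN, and it passed the filter through the KO samples alone, where it is higher, so no test is given.

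Between the organs, 2 of 16 listed genes were called in WT cells, where 20.5% of all genes were, and 4 of 17 in KO cells, where 25.3% were. The 4 in KO include P2ry1, whose call is given below as a description. P2ry10, a receptor of lysophospholipids named with the P2Y family, was the highest of the P2Y receptors. It was at 61.6 to 71.4 CPM in WT spleen and 104 to 132 in WT mLN, and at 54.3 to 62.6 in KO spleen and 81.7 to 112 in KO mLN. The organs did not overlap, which was so in the same direction for 16.1% of all genes in WT and 14.2% in KO. Its log2 fold changes were 0.78 ± 0.099 in WT and 0.68 ± 0.109 in KO (edgeR adjusted p = 0.0010 and 0.00098).

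Dpp4, the surface peptidase CD26, was at 90.7 to 133 CPM in WT spleen and 151 to 207 in WT mLN, and at 74.5 to 107 in KO spleen and 147 to 167 in KO mLN. Its log2 fold changes were 0.64 ± 0.147 (edgeR adjusted p = 0.015) in WT and 0.71 ± 0.110 (adjusted p = 0.00085) in KO, and the WT call was lost without WT mLN 4 (adjusted p = 0.0561). It was also lost without the 3 libraries with high haemoglobin counts (log2 fold change 0.60, adjusted p = 0.0555).

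In KO cells Art2a-ps was also higher in mLN, at 19.96 to 27.6 CPM against 13.99 to 16.3 in spleen (log2 fold change 0.68 ± 0.141, edgeR adjusted p = 0.0051). In WT cells it was at 15.9 to 39.2 CPM in mLN and 12.98 to 17.5 in spleen. There the organs overlapped and the main test did not call it. The edgeR fit of all 15 samples called it in WT as well (log2 fold change 0.70, adjusted p = 0.0439). The ADP receptor P2ry1 was at 0.179 to 1.19 CPM in KO mLN and 1.32 to 3.40 in KO spleen, from 2 to 39 reads per sample. It passed the filter on low counts through KO spleen alone, where it is higher, and so its call is given as a description.

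Panx1, a channel through which cells release ATP, was the most abundant gene of ATP release and P2rx3 of the other P2X receptors. Panx1 was at 86.7 to 128 CPM and P2rx3 at 4.57 to 10.3 CPM over the 15 samples, and neither was called in any comparison. None of Adora1, Adora2b and Adora3 passed the filter, with 0 to 8 reads per sample, so Adora2a was the adenosine receptor with measurable RNA at this depth.

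**Figure D4:**
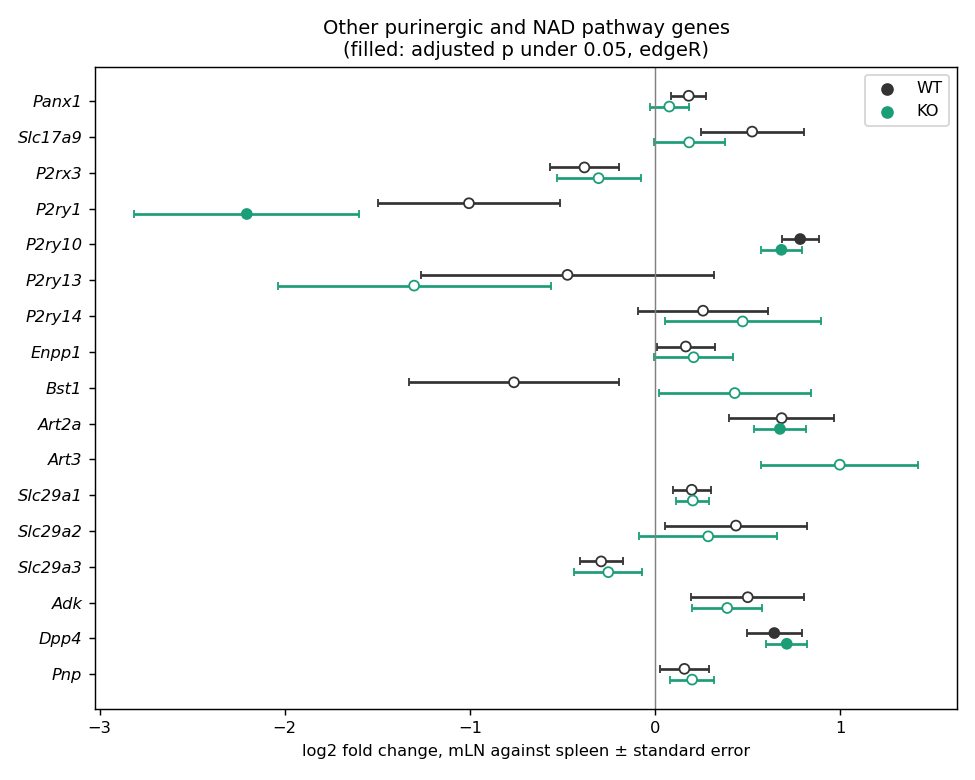
Log2 fold changes of mLN against spleen with standard errors from edgeR for the other listed pathway genes that passed the filter, WT in grey and KO in green, with filled points at an adjusted p under 0.05 (Art2a stands for Art2a-ps). P2ry10 and Dpp4 are filled and higher in mLN in both genotypes, and Art2a-ps is filled and higher in KO. The filled point of P2ry1 in KO is a gene that passed the filter through the spleen samples alone.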

How the data were processed

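RNA from the sorted T cells of 15 samples was sequenced as single-end reads of 75 bases. According to the submitters' processing notes and the methods, the authors used bcl2fastq 2.19.1.403 and STAR 2.6.1a with GRCm38 and GENCODE M23, RSEM is also named, and a WT mLN sample was excluded by the authors for its quality. The deposited values are raw read counts per gene, without normalization. The strand setting of the counting is not given in the sources used here, and a median of 60.9% of uniquely aligned reads lay on no gene. Symbols, exons and coordinates came from GENCODE M21, in which 55240 of 55421 genes were found, and the start-site windows from RefSeq (GRCm38.p6), which matched the 2 genes shown. Exons of P2rx7 overlap those of the microRNA gene Mir8115, which had 0 reads, and no exon of the other 7 genes overlaps another gene.

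Counts were tested with edgeR 4.0.16 in R 4.3.3 (filter on low counts, TMM, quasi-likelihood test, Benjamini-Hochberg adjustment over all genes tested, limit 0.05), in each comparison with only its groups and for the interaction with all 15 samples. Levels are TMM-scaled CPM, and r used log2 CPM (prior count 2). The alternatives were DESeq2 1.42.0 (the tool of the authors, at version 1.22.2), RLE normalization, no filter, a minimum of 10 counts per sample, a single fit of all 15 samples, a replicate block, a fold change limit of 1 on the log2 scale, plain CPM for levels, and each sample left out in turn. The fit without the 3 libraries with high haemoglobin counts was added after the marker counts were seen. In simulated counts with 200 planted genes, edgeR recovered 91.3% of log2 changes of 1 in spleen (of 14025 genes), 77.2% in mLN (of 14015), 74.0% between the WT organs (of 14240), 90.7% between the KO organs (of 13983) and 54.7% in the interaction (of 15110). No log2 change smaller than 1 was planted. Of the calls in these counts, 13.5% were false for DESeq2 and 6.37% for edgeR in spleen. Between the KO organs the shares were 11.5% and 3.54%.

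The 8 genes and all lists were chosen with earlier results of these data known. Named beside the 8 are the listed pathway genes called in any comparison, the highest in each role, and the 2 genes most like each of the 8. Deviations of same-numbered samples from their group means correlated at r = 0.243 to 0.291 in the 3 WT pairs of spleen and mLN, so the replicate number was taken to pair them, and at 0.0258 to 0.26 in the 4 KO pairs, where it was not. This pairing comes from the data, since no source used here says which number belongs to which mouse. The study gives the sequencing as a single experiment with several mice per group, so p-values between genotypes measure the spread between mice within it. The main tests between organs and of the interaction took every library as independent, and only the replicate block used the numbers. Where same-numbered samples share a mouse, those main p-values leave the pairing out. Figures were drawn with matplotlib 3.10.9.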

Additional observations from a re-analysis of the deposited data

Results flagged for a closer look

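In groups of 4 samples, 1 sample lay far from the other 3 in 6 of 84 groups examined over the 8 genes and the measured pathway genes, and chance does this in about 1 of 20 groups. Of the 8 genes this concerned Ada in KO mLN, where KO mLN 4 was at 2.78 CPM and the other 3 at 4.56 to 4.88 CPM. Among the pathway genes in KO mLN, the highest sample was at 1.19 CPM for P2ry1 (the others at 0.179 to 0.276), at 2.6 CPM for Bst1 (1.29 to 1.49) and at 0.092 CPM for Gja1, which is 1 read against 0 in the others in a gene that did not pass the filter between any groups, and the lowest was at 83.8 CPM for Slc29a1 (93.6 to 94.5). In WT spleen the highest sample for Slc29a2 was at 2.99 CPM (1.17 to 1.35).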

How the results depend on the processing

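The calls of Nt5e and Adora2a between the organs held in both genotypes under every alternative run with the limit of 0.05 alone, and when each sample was left out. With a log2 limit of 1 added, 1 of the 8 genes was called between the organs in WT and 1 in KO, and 0 pathway genes in WT, 1 in KO and 0 between genotypes in spleen. DESeq2 called 1 of the 8 between genotypes in spleen, 2 pathway genes in spleen and 1 in mLN. Without the filter on low counts, 2 of the 8 were called between genotypes in each organ (Entpd1 and Nt5e) and 4 between the WT organs (also Cd38 and Art2b), with 4 pathway genes called in spleen, 1 in mLN and 6 between the WT organs. With all 15 samples in 1 fit, 0 pathway genes were called in spleen, 1 in mLN and 4 between the WT organs. The cause of these changes was not tested. Where 1 pathway gene was called in mLN it was Art3, and the 1 called between the KO organs over the log2 limit was P2ry1. Each passed the main filter only through the group where it is higher, so these calls are given as a description. Leaving out each sample in turn gave 0 to 1 pathway calls between genotypes in spleen (the 1 being P2ry14 without WT spleen 3) and 1 to 3 between the WT organs.

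Over all genes, edgeR called 185 between genotypes in spleen and 92 in mLN, DESeq2 840 and 588. With the replicate block the counts were 17 and 1 between genotypes, where the numbers did not pair the samples (r of deviations from -0.21 to 0.146 in spleen and -0.0531 to 0.0034 in mLN), 4351 against 2980 between the WT organs and 3814 against 3602 between the KO organs. In KO cells Art2b was called with the block (log2 fold change 0.36, adjusted p = 0.045 in edgeR) and in DESeq2 (adjusted p = 0.0394). The block left 0 pathway genes called between genotypes in spleen, and beside Art2b, in both genotypes between the organs, changed the call of none of the 8 genes. It turned P2rx7 between the WT organs to 0.0080, and in the interaction P2rx4 to 0.0038, Cd38 to -0.018, Adora2a to -0.017 and Art2b to -0.17.

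Without the 3 libraries with high haemoglobin counts, an alternative chosen after seeing the data, directions turned for P2rx7 between genotypes in mLN (-0.0045), Ada between the WT organs (-0.022) and, in the interaction, Nt5e (-0.067), Cd38 (-0.044) and Art2b (-0.24), and Enpp1 in spleen had a log2 fold change of -0.54 with an edgeR adjusted p of 0.154. When each sample was left out, directions turned only among differences that were not called. The log2 fold changes between genotypes in spleen ran from -0.35 to 0.019 for P2rx7, -0.17 to 0.31 for Cd38, -0.026 to 0.14 for Adora2a, -0.14 to 0.26 for Art2b and -0.33 to 0.0084 for Ada, and in mLN from -0.030 to 0.24 for P2rx7 and -0.19 to 0.48 for Art2b. Between the WT organs they ran from -0.41 to 0.0035 for P2rx7, -0.24 to 0.034 for P2rx4, -0.067 to 0.21 for Entpd1, -0.027 to 0.64 for Art2b and -0.10 to 0.23 for Ada, and between the KO organs from -0.079 to 0.10 for P2rx7 and -0.30 to 0.15 for Entpd1. In the interaction they ran from -0.25 to 0.055 for P2rx4, -0.38 to 0.072 for Entpd1, -0.27 to 0.19 for Nt5e, -0.042 to 0.63 for Cd38, -0.0097 to 0.18 for Adora2a and -0.25 to 0.42 for Art2b. Of the log2 fold changes of the 8 genes under these alternatives, 54 turned direction, 12 became called and 558 kept their direction and call. Depth limits Ada, with 31 to 75 reads per sample, and P2ry1, with 2 to 39.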
